A study of Mus musculus with 6 samples.

Results

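Antiproliferative and mRNA decay factors were followed through 10 genes: the antiproliferative genes Btg1, Btg2, Tob1 and Tob2, the AU-rich element binding genes Zfp36, Zfp36l1 and Zfp36l2, the immune mRNA decay genes Zc3h12a and Rc3h1, and Pnrc1. They were chosen by name from the deposited gene count table, where all 10 were found among 23420 genes, and all 10 passed the filter on low counts. The RNA came from GFP-positive regulatory T cells (Tregs) sorted from T11 tumors, a claudin-low model of triple-negative breast cancer. Every mouse was a BALB/c Foxp3-GFP mouse, in which cells that express the Treg factor FoxP3 fluoresce, and every mouse was injected with 10000 T11 cells. Of the 6 libraries, 3 came from untreated mice (untreated 1, 2 and 3) and 3 from mice that received intraperitoneal J43, an antibody against PD-1, at 200 µg, 2 times per week (anti-PD-1 4, 5 and 6). Tumors of both groups were taken at 150 mm2, lymphocytes were enriched on a density gradient after enzymatic digestion, and cells were sorted to a purity above 90%. Age, sex and number of mice are not stated. Whether each library stands for its own mouse is not stated either, and p-values therefore cover no more than the spread of these libraries, possibly a technical one.

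The 10 genes encode proteins that shorten the life of mRNAs or tie mRNA decay to growth arrest. BTG and TOB proteins bind the CCR4-NOT deadenylase, which removes poly(A) tails, and BTG1 and BTG2 are known to keep T cells quiescent. Proteins of the ZFP36 family bind AU-rich elements in the 3′ untranslated regions (UTRs) of cytokine and cell cycle mRNAs and recruit the same deadenylase. Regnase-1 (Zc3h12a) cuts, and Roquin-1 (Rc3h1) binds, stem-loops in the mRNAs of costimulatory and inflammatory genes, and both restrain T cell activation. PNRC1 is a nuclear receptor coactivator that also binds the decapping machinery.

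The letters that ZFP36 proteins bind also stand in mRNAs of the family itself. The 9-base AU-rich element TTATTTATT was found in the annotated 3′ UTR (GENCODE M21, GRCm38) of 4 of the 10 genes, namely all 3 ZFP36 genes and Rc3h1, with 1 copy each, and in 7.94% of the 3′ UTRs of 9329 tested genes. The sites are shown because ZFP36 proteins are known to act on their own mRNAs. Each is written 5′ to 3′ in the sense of the mRNA with 10 bases on either side, and capitals mark the element.
Zfp36 site: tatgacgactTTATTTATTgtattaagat
Zfp36l1 site: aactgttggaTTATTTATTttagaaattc
Zfp36l2 site: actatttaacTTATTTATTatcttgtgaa
Rc3h1 site: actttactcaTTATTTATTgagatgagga

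The printed Zfp36 stretch lies at chr7:28376951-28376979 (minus strand), that of Zfp36l1 at chr12:80108167-80108195 (minus strand), that of Zfp36l2 at chr17:84184914-84184942 (minus strand) and that of Rc3h1 at chr1:160970043-160970071 (plus strand). A longer 3′ UTR holds the element more often, so each was set beside tested genes whose 3′ UTR was within 20% of its length. For Zfp36, with a 3′ UTR of 774 bases, 4.54% of 1101 such genes held the element. For Zfp36l1 (1835 bases) the share was 9.45%, for Zfp36l2 (1822 bases) 9.43%, and for Rc3h1 (7181 bases) 27.8%. The shorter motif ATTTA, which the element contains, occurred 9 times in Zfp36l1, and 3.94% of tested genes of like length held as many. It occurred 11 times in Btg1 (4166 bases), 5 times in Btg2 (2199 bases) and 3 times in Tob1 (767 bases), where 22.5%, 36.2% and 19.3% of genes of like length held as many. In Tob2 (4 times) and Pnrc1 (1 time) most genes of like length held as many, 54.6% and 59.5%. In Zfp36, Zfp36l2, Zc3h12a and Rc3h1 the share was between 17.6% and 26.3%. A match is a description of the letters and not evidence of binding in these cells.

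Promoters are shown for the 3 genes whose anti-PD-1 and untreated libraries did not overlap, Btg2, Zfp36 and Zfp36l1. Each is the 250 bases before the start of the gene (RefSeq, GRCm38.p6), read 5′ to 3′ in the direction of the gene.
Btg2 promoter, chr1:134079156-134079405 (minus strand): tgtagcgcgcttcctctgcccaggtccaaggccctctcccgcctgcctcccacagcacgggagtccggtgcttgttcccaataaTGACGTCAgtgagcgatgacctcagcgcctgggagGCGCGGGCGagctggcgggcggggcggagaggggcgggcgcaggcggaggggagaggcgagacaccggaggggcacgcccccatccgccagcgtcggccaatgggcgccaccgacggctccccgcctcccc
Zfp36 promoter, chr7:28379229-28379478 (minus strand): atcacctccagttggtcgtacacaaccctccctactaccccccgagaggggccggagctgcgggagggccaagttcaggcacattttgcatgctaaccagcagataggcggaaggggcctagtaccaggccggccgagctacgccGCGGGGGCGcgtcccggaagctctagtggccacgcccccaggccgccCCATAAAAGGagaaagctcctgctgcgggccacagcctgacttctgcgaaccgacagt
Zfp36l1 promoter, chr12:80113014-80113263 (minus strand): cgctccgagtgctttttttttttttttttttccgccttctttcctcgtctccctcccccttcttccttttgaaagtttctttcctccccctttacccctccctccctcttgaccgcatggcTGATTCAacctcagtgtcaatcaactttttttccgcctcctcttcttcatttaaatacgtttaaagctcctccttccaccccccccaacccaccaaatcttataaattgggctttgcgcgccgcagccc

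Capitals mark matches on either strand to the cAMP response element TGACGTCA, the AP-1 motif TGANTCA, the EGR motif GCGNGGGCG and the CArG box. The windows of 9 of the 10 genes were searched, all but that of Zfp36l2. The cAMP response element stood in Btg2 at -166 to -159 from the gene start and in 1.55% of 32851 promoter windows of the same length. The EGR motif stood in Btg2 at -131 to -123 and in Zfp36 at -105 to -97, and in 4.70% of all windows. The CArG match of Zfp36 (-58 to -49, in 1.47% of all windows) was the only one among the 9 windows. The AP-1 motif stood in Zfp36l1 at -129 to -123 and in Rc3h1 at -133 to -127, and in 6.75% of all windows. The 2 motifs marked in Btg2 do not overlap each other, nor do the 2 in Zfp36.

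Total counts ran from 4766533 to 6686774 per library, with every untreated library deeper than every treated one, and each of the 10 genes held between 602 and 17738 counts in every library. Untreated 1 stood apart from the other libraries: it lay at 2.40 on the main axis of a multidimensional scaling, where the others lay between -0.66 and -0.39. Its share of counts in the nuclear RNA Malat1 was 3.10%, against 1.49% to 2.53% in the others. The ribosomal precursor Rn45s took 21.4% to 25.1% of counts in the 6 libraries. Treg markers were present in all of them, with Foxp3 at 430 to 461 CPM (counts scaled to a common library size, here by the library total) in untreated and 463 to 569 CPM in anti-PD-1 libraries. The 7 Treg markers together took 0.660% to 0.675% of counts in untreated and 0.552% to 0.632% in anti-PD-1 libraries, without overlap, but they did not share a direction: Foxp3 and Cd4 were higher, and Ctla4 and Ikzf2 lower, in every anti-PD-1 library. The 9 macrophage and monocyte markers together took 0.00121% to 0.00291% of counts in untreated and 0.00145% to 0.0032% in anti-PD-1 libraries, 3 of the 9 were tested, and C1qa was at 0 in all 6. The 4 neutrophil markers found took 0% in untreated libraries and at most 2.1e-05% in anti-PD-1 libraries, and S100a9, Csf3r and Retnlg were at 0 in all. The 2 CD8 chain genes took 0.00103% to 0.00318% in untreated and 0.00188% to 0.00518% in anti-PD-1 libraries. Groups did not overlap for the dendritic cell markers (0.0000150% to 0.000366% untreated, 0.000372% to 0.000692% after anti-PD-1, with Clec9a at 0 in all) and the endothelial ones (0.00660% to 0.00750% and 0.00845% to 0.0125%, all from Pecam1, with Cdh5, Kdr and Tek at 0), both higher after anti-PD-1. None of the 5 dendritic markers passed the filter on low counts, and they did not share a direction. Siglech stood at 0 CPM in every untreated library and at 4.41, 5.45 and 1.65 CPM in anti-PD-1 4, 5 and 6. Itgax stood at 0.15, 3.66 and 2.75 CPM in untreated 1, 2 and 3 and at 0, 0.42 and 1.03 CPM in anti-PD-1 4, 5 and 6. Groups overlapped for the natural killer, B cell and tumor or fibroblast markers. The sum of the tumor or fibroblast markers came mostly from Vim (999 to 1776 CPM), so it says little of the other markers in that list. The part of other cells in the results below was not tested.

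All 10 genes stood above the median tested gene in tumor Tregs, but they ranged widely. In the untreated group, they ran from rank 24 (Pnrc1) to rank 2640 (Rc3h1) of 10352 tested genes. Levels were compared between genes as CPM per kilobase of gene length (scaled by the trimmed mean of M-values, TMM, as are all CPM values below). Pnrc1 had the highest level, 889 ± 169 CPM per kb (SD, n = 3) in the untreated group and 862 ± 50.6 (SD, n = 3) in the treated one, which was rank 24 and rank 32 of 10352 tested genes. Btg1 followed at 477 ± 79.7 and 482 ± 9.94 CPM per kb, then Zfp36l1 at 413 ± 22.6 and 352 ± 35.8. The median tested gene stood between 8.36 and 8.68 CPM per kb in the 6 libraries.

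Among the less abundant members, Zfp36 had a level of 251 ± 24.2 CPM per kb untreated and 321 ± 27.2 after anti-PD-1, and Zfp36l2 one of 235 ± 62.6 and 240.3 ± 52.9. Btg2 stood at 99.3 ± 2.07 and 139 ± 12.7 CPM per kb. Tob1 (66.0 ± 29.1 and 64.7 ± 2.11), Tob2 (57.9 ± 19.5 and 50.2 ± 3.13) and Zc3h12a (51.3 ± 13.02 and 53.8 ± 6.67) lay close together, and Rc3h1 was lowest at 22.0 ± 4.40 and 21.1 ± 0.762 CPM per kb. In the untreated group, neighbours in this order whose libraries overlapped were Btg1 with Zfp36l1, Zfp36 with Zfp36l2, Btg2 with Tob1, Tob1 with Tob2, and Tob2 with Zc3h12a. In the anti-PD-1 group they were Zfp36l1 with Zfp36, Zfp36 with Zfp36l2, and Zc3h12a with Tob2. Without untreated 1, Zfp36l2 came above Zfp36 and Zc3h12a above Tob2 in the untreated order. All levels are per amount of RNA sequenced, so that fewer cells of a type and less RNA per cell cannot be told apart.

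The comparison asked whether Tregs in tumors of mice given anti-PD-1 hold more or less of each of these mRNAs. None of the 10 passed edgeR's quasi-likelihood test (Benjamini-Hochberg adjusted over all 10352 tested genes at 0.05), where 3 genes passed in all (0.029%), and none passed by DESeq2 or limma-voom with quality weights. At an unadjusted p under 0.05 stood 2 of the 10, Btg2 and Zfp36, both with higher values after anti-PD-1, beside 8.3% of all tested genes. Btg2 stayed under 0.05 whichever library was left out, and Zfp36 did not (edgeR unadjusted p of 0.106 without untreated 3 and again without anti-PD-1 4). The 2 groups did not overlap in 3 of the 10, which was the case in 13.6% of tested genes: Btg2 and Zfp36 were higher in every anti-PD-1 library (7.18% of tested genes) and Zfp36l1 was lower in every one (6.44%). The log2 fold change was above 0 in 5 and below 0 in 5, with a median of -0.0097, and the median over all tested genes was 0.0016.

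**Figure D1:**
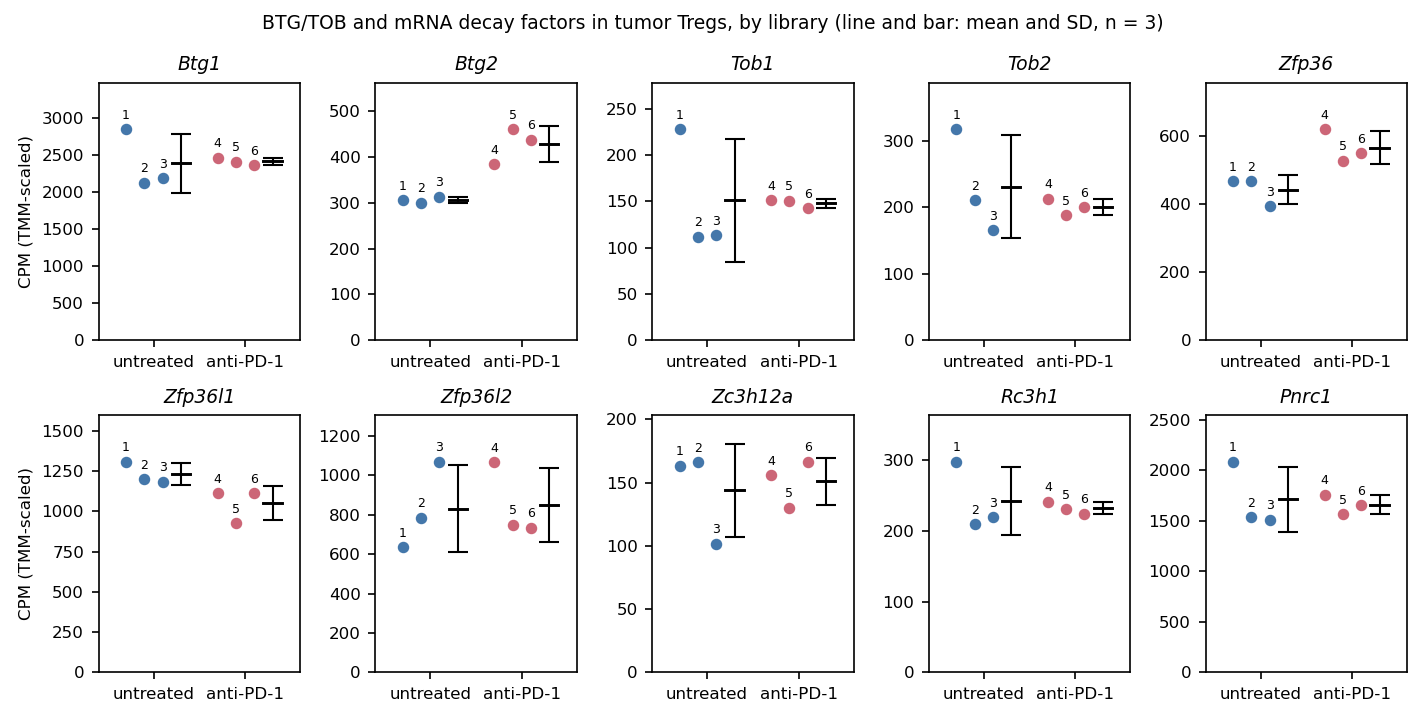
TMM-scaled CPM of each of the 10 genes in untreated (blue, libraries 1 to 3) and anti-PD-1 (red, libraries 4 to 6) Tregs, with each axis starting at 0 and the mean and SD (n = 3) drawn beside the points. Btg2 and Zfp36 lie higher in every anti-PD-1 library, Zfp36l1 lies lower in every one, and untreated 1 lies highest in Btg1, Tob1, Tob2, Zfp36l1, Rc3h1 and Pnrc1.

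Of the BTG/TOB genes, Btg2 had the smallest p. Btg2, an early response gene also induced by p53, lies on chromosome 1 (134074865 to 134079155, minus strand, mm10, 2 exons). It stood at 305, 300.3 and 313 CPM in untreated 1, 2 and 3, and at 384, 460.2 and 438 CPM in anti-PD-1 4, 5 and 6. The untreated libraries lay close together and below every anti-PD-1 library. The fold change was 1.39 (log2 0.48 ± 0.14 SE, 95% interval 0.18 to 0.78, edgeR unadjusted p of 0.00288, adjusted p = 0.414), rank 71 by p among all tested genes. Over 16 alternatives its log2 fold change ran from 0.42 to 0.55 and its adjusted p from 0.0926 (DESeq2) to 0.877, so it passed in none.

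Btg1, the abundant paralog of Btg2 and like it an adaptor of the deadenylase, lies on chromosome 10 (96617001 to 96622811, plus strand). It stood at 2846, 2124 and 2190.2 CPM in untreated 1, 2 and 3 and at 2463, 2411 and 2363 CPM in anti-PD-1 4, 5 and 6. Untreated 1 was the highest library of all 6 and the other untreated libraries were the lowest of all 6, so the groups overlapped. The log2 fold change was 0.015 ± 0.14 (SE, 95% interval -0.27 to 0.30 in edgeR), and adjusted p = 0.985. The anti-PD-1 libraries of Btg1 varied little, with a coefficient of variation of 2.06% where tested genes of like level had a median of 9.73%.

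The TOB genes encode larger relatives that also bind poly(A)-binding protein, and TOB1 is known as a brake on T cell proliferation. Tob1 (chromosome 11, 94211454 to 94215492, plus strand) stood at 228, 112 and 113 CPM in untreated and at 151, 150.4 and 142 CPM in anti-PD-1 libraries. The treated libraries lay together between untreated 1 and the other untreated libraries. Tob2 (chromosome 15, 81848270 to 81858326, minus strand) stood at 317, 210.4 and 166 CPM untreated and 213, 188 and 200.3 CPM after anti-PD-1. In Tob2 too, untreated 1 was the highest and the anti-PD-1 values lay within the untreated range. The log2 fold changes were -0.035 ± 0.22 (95% interval -0.49 to 0.42) for Tob1 and -0.21 ± 0.19 (-0.60 to 0.19) for Tob2, with edgeR adjusted p of 0.980 and 0.817.

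Of the ZFP36 genes, Zfp36 and Zfp36l1 differed in direction. Zfp36 encodes tristetraprolin, an early response protein that destabilizes Tnf and other cytokine mRNAs, and lies on chromosome 7 (28376784 to 28379228, minus strand). It had 468, 468 and 394 CPM in untreated 1 to 3 and 621, 529 and 550.3 CPM in anti-PD-1 4 to 6. Every anti-PD-1 library was above every untreated one. The fold change was 1.28 (log2 0.35 ± 0.14 SE, 95% interval 0.06 to 0.65, edgeR unadjusted p of 0.0209, adjusted p = 0.538), and the adjusted p ran from 0.328 to 0.921 over the 16 alternatives.

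Zfp36l1, which with Zfp36l2 is known to restrain lymphocyte proliferation, lies on chromosome 12 (80107760 to 80113013, minus strand). It stood at 1308, 1201 and 1184 CPM in untreated and at 1113, 928 and 1113 CPM in anti-PD-1 libraries. Every anti-PD-1 library was below every untreated one, and anti-PD-1 5 was the lowest of all. The log2 fold change was -0.23 ± 0.14 (SE, 95% interval -0.51 to 0.05 in edgeR, unadjusted p of 0.105, adjusted p = 0.688), and it stayed below 0 in all 16 alternatives (-0.27 to -0.15).

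Zfp36l2 (chromosome 17, 84183928 to 84187947, minus strand) varied more between libraries than between groups. Its values were 633, 785 and 1069 CPM untreated and 1064, 749.8 and 733 CPM after anti-PD-1. Untreated 3 and anti-PD-1 4 were high and the other 4 libraries lower, with coefficients of variation of 26.7% and 22.0% where genes of like level had medians of 12.2% and 9.73%. The log2 fold change was 0.035 ± 0.18 (SE, 95% interval -0.33 to 0.40).

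The makeup of each family, which does not depend on how libraries were scaled, was described as each gene's share of the summed level per kb. Among the ZFP36 genes, Zfp36 made up 30.02%, 29.8% and 24.2% untreated and 34.3%, 36.4% and 34.95% after anti-PD-1. Zfp36l1 made up 49.7%, 45.2% and 43.0% untreated and 36.4%, 37.8% and 41.8% after anti-PD-1. Neither share overlapped between groups, with means of 28.0% ± 3.31 and 35.2% ± 1.10 for Zfp36 and of 46.0% ± 3.39 and 38.6% ± 2.82 for Zfp36l1 (SD, n = 3), while the share of Zfp36l2 overlapped (26.0% ± 6.31 and 26.1% ± 3.07). Among the BTG/TOB genes, Btg2 made up 11.7%, 15.6% and 16.1% untreated and 16.9%, 20.1% and 19.6% after anti-PD-1, without overlap. The share of Btg1 was 68.2% ± 1.15 and 65.5% ± 1.15, also without overlap, and those of Tob1 and Tob2 overlapped. These shares were not tested, and within a family 1 share cannot grow without another shrinking. Zfp36, Zfp36l1 and Btg2 were apart in CPM as well, so their shares are not a separate result. The CPM of Btg1 overlapped between the groups.

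**Figure D2:**
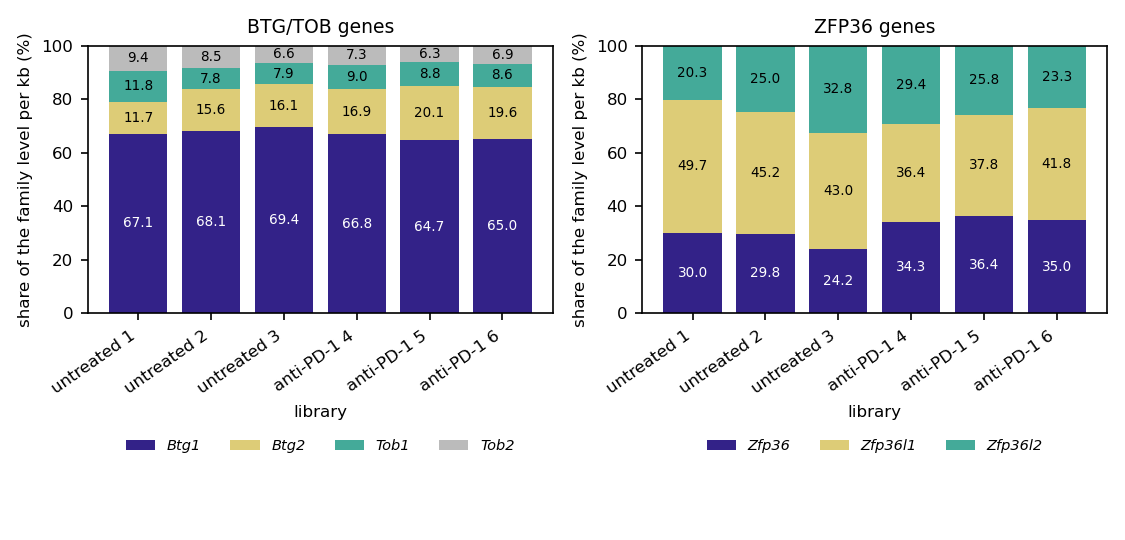
Share of each gene (percent of the family's summed CPM per kb) in each library, for the BTG/TOB genes (left) and the ZFP36 genes (right), with libraries on the horizontal axis. Zfp36 takes 24.2% to 30.02% in untreated and 34.3% to 36.4% in anti-PD-1 libraries, and Zfp36l1 takes 43.0% to 49.7% and 36.4% to 41.8%.

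Of the immune mRNA decay genes, neither had groups apart. Zc3h12a, encoding Regnase-1, lies on chromosome 4 (125118414 to 125127881, minus strand, 6 exons) and stood at 163, 166 and 102 CPM untreated and at 156, 130.2 and 167 CPM after anti-PD-1. Untreated 3 was its lowest library, and the other 5 overlapped (log2 fold change 0.07 ± 0.19 SE, 95% interval -0.33 to 0.47). Rc3h1, encoding Roquin-1, lies on chromosome 1 (160906411 to 160974976, plus strand, 20 exons) and stood at 298, 209 and 219.7 CPM untreated and 241, 231 and 224 CPM after anti-PD-1. Its 3 treated libraries again lay between untreated 1 and the other untreated libraries (log2 fold change -0.06 ± 0.16 SE, 95% interval -0.40 to 0.27).

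Pnrc1, the most abundant of the 10, lies on chromosome 4 (33245423 to 33248787, minus strand). It stood at 2085, 1536 and 1510.3 CPM in untreated and at 1759, 1564 and 1656 CPM in anti-PD-1 libraries. The pattern was that of Btg1, Tob1 and Rc3h1: untreated 1 highest, untreated 2 and 3 lowest, and the treated libraries between. Its log2 fold change was -0.043 ± 0.14 (SE, 95% interval -0.34 to 0.25). EdgeR's adjusted p for Zfp36l2, Zc3h12a, Rc3h1 and Pnrc1 lay between 0.945 and 0.974.

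**Figure D3:**
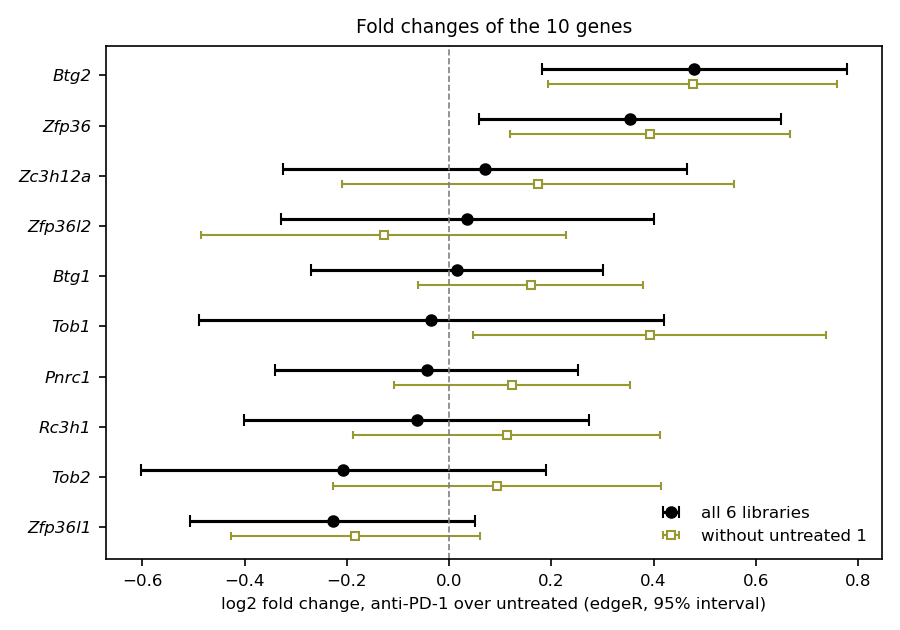
Log2 fold change (anti-PD-1 over untreated, horizontal axis) of each gene with its 95% interval, from edgeR with all 6 libraries (filled) and without untreated 1 (open). Only the intervals of Btg2 and Zfp36 lie above 0 with all libraries, and that of Tob1 joins them without untreated 1.

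The sign of 5 genes (Tob1, Tob2, Zfp36l2, Rc3h1 and Pnrc1) turned when untreated 1 was left out. It was the highest of the 6 libraries in 6 of the 10 genes (Btg1, Tob1, Tob2, Zfp36l1, Rc3h1 and Pnrc1) and in 26.0% of all tested genes. Its Tob1 level was 2.02 times the mean of untreated 2 and 3, a ratio reached by 4.08% of tested genes with a mean of at least 5 CPM, and its Btg1 level was 1.32 times that mean, reached by 22.5%. Without untreated 1, 8 of the 10 genes had a log2 fold change above 0, with a median of 0.14, while the median over all tested genes was 0.0072. Every anti-PD-1 library was then higher in 6 genes (Btg1, Btg2, Tob1, Zfp36, Rc3h1 and Pnrc1; 12.1% of tested genes, with 3 libraries against 2) and lower in 1, Zfp36l1 (11.4%).

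Tob1 moved most when untreated 1 was left out, to a log2 fold change of 0.39 ± 0.17 (SE, edgeR unadjusted p of 0.0271, adjusted p = 0.569, range over its alternatives 0.569 to 0.997). Btg1 moved to 0.16 ± 0.11 and Pnrc1 to 0.12 ± 0.11. Btg2 (0.48 ± 0.14, edgeR adjusted p = 0.228), Zfp36 (0.39 ± 0.13, adjusted p = 0.400) and Zfp36l1 (-0.18 ± 0.12, adjusted p = 0.747) kept their direction. No gene of the 10 passed, at an adjusted 0.05, in this or any other of the 16 alternatives.

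**Figure D4:**
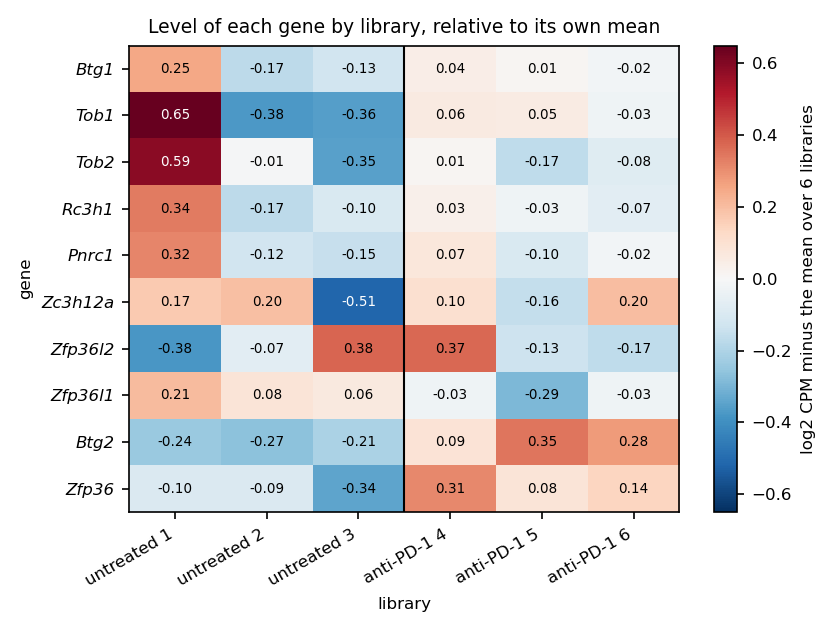
Log2 CPM of each gene (rows) in each library (columns) minus the gene's mean over the 6 libraries, with untreated left and anti-PD-1 right of the line. Untreated 1 reaches 0.65 in Tob1 and 0.59 in Tob2, while Btg2 and Zfp36 are below 0 in every untreated and above 0 in every anti-PD-1 library.

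The genes whose pattern over the 6 libraries was most like that of Btg2 were the AP-1 subunits Jun (Pearson r = 0.991) and Fos (r = 0.991), the Polycomb gene Cbx7 (r = 0.989), the ribosomal protein gene Rpl36 (r = 0.985) and the scaffold gene Mpp7 (r = 0.983), among 8678 genes with a mean of at least 5 CPM. These r are over 6 libraries that share depth and composition, and 105 genes had an r above 0.9. Btg2 was taken for its smallest p, so a high r favours genes that also differ between the groups. Jun rose (log2 fold change 1.11 ± 0.16 SE, edgeR adjusted p = 0.0034), and Fos did not pass (0.91 ± 0.18, adjusted p = 0.0658).

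Btg2 and Zfp36, which had higher values after anti-PD-1, are themselves early response genes. Genes known to respond to tissue dissociation also lay higher, though many of them only slightly. In a list of 20 such genes, none of them among the 10 (Ier3 is also in the target list below), all 20 had a log2 fold change above 0, with a median of 0.32. Jun passed edgeR's test, 9 stood at an unadjusted p under 0.05, and 8 were higher in every anti-PD-1 library. Of all 10352 tested genes, 50.1% lay above 0, and 438 did so at an edgeR unadjusted p under 0.05. Every anti-PD-1 library was higher in 7.18% of them. The list took 0.75%, 0.739% and 0.674% of counts in untreated 1, 2 and 3 and 0.915%, 0.976% and 0.868% in anti-PD-1 4, 5 and 6, without overlap. Beside Jun and Fos, Ier2 stood at a log2 fold change of 0.92 ± 0.19 and Socs3 at 0.96 ± 0.23 (edgeR adjusted p = 0.0933 and 0.161). The heat shock genes Hspa1a (1.39 ± 0.30) and Hspa1b (1.42 ± 0.38) had the largest log2 fold changes of the list. Groups overlapped for Egr1 (0.07 ± 0.21), Dusp1 (0.11 ± 0.14), Junb (0.22 ± 0.14) and Nr4a1 (0.24 ± 0.17), among others. When 1 library was left out, the list's median ran from 0.23 (without untreated 3) to 0.60 (without untreated 1). It was 0.55 without anti-PD-1 4 and 0.48 without anti-PD-1 6. Its part in the values of Btg2 and Zfp36 was not tested.

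The machinery that these proteins recruit showed no gene past the threshold. Of 17 deadenylation genes (CCR4-NOT, PAN2-PAN3 and poly(A)-binding genes), 9 had a log2 fold change above 0 and 8 below, with a median of 0.03, and none stood at an unadjusted p under 0.05. The subunit gene Cnot4 was at 0.35 ± 0.17 and the deadenylase gene Pan3 at 0.29 ± 0.16. Both were higher in every anti-PD-1 library, as were 7.18% of tested genes. Cnot3 was at 0.35 ± 0.26 and Cnot8 at -0.42 ± 0.30. Of 19 decapping genes, counting the 5′ exonuclease gene Xrn1, 6 lay above and 13 below 0 (median -0.08). The P-body gene Lsm14b stood at 0.87 ± 0.36 (14.2 ± 5.84 CPM untreated, 26.0 ± 1.81 after anti-PD-1, edgeR unadjusted p of 0.0226, adjusted p = 0.544), Xrn1 at -0.34 ± 0.18, Lsm14a at -0.19 ± 0.15 and Lsm1 at -0.49 ± 0.48. Lsm14b was higher, and Lsm14a lower, in every anti-PD-1 library.

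The other decay lists were divided in the same way. Of 15 RNA exosome genes, 8 lay above and 7 below 0 (median 0.013), among them Exosc6 at -1.72 ± 0.78 with only 6.85 ± 4.58 and 2.11 ± 1.63 CPM, Exosc8 at -0.53 ± 0.28, Wdr61 at -0.53 ± 0.36 and Dis3l at -0.39 ± 0.31. Of 10 nonsense-mediated decay genes, 4 lay above and 6 below 0 (median -0.18), with Smg6 at -0.29 ± 0.20, Upf3a at -0.42 ± 0.31, Upf2 at -0.19 ± 0.16 and Smg5 at -0.22 ± 0.29. Of 11 further genes of RNA-binding proteins that act on AU-rich or other 3′ UTR elements, 4 lay above and 7 below 0 (median -0.15). Hnrnpa0 stood at -0.33 ± 0.17, Cpeb4 at 0.33 ± 0.22, Tia1 at -0.44 ± 0.30 and Celf1 at 0.25 ± 0.18. Of these lists, Exosc8, Dis3l, Upf2 and Hnrnpa0 were lower in every anti-PD-1 library (6.44% of tested genes). Cpeb4 was higher in every one (7.18%). These medians moved when 1 library was left out. The deadenylation median ran from -0.022 (without untreated 1) to 0.068 (without anti-PD-1 6), the decapping median from -0.17 (without untreated 2) to -0.015 (without untreated 1), and the exosome median from -0.19 (without anti-PD-1 5) to 0.093 (without anti-PD-1 6). With all libraries and a filter of at least 10 CPM in 3 libraries, the exosome median was -0.21. The nonsense-mediated decay median ran from -0.16 (without anti-PD-1 5) to -0.080 (without anti-PD-1 4) and was -0.089 without anti-PD-1 6, -0.11 without untreated 1 and -0.11 without untreated 2. The median of the further RNA-binding proteins ran from -0.22 (without untreated 3) to 0.033 (without untreated 1) and was -0.081 without anti-PD-1 6.

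Of 8 listed paralogs of the 10 genes, 4 passed the filter, and Btg4 and Zfp36l3 had 0 counts in all libraries. Rc3h2, the close paralog of Rc3h1, stood at 193 ± 37.6 CPM untreated and 181 ± 7.67 after anti-PD-1 (SD, n = 3), a log2 fold change of -0.10 ± 0.17. The Regnase relatives Zc3h12d and Zc3h12c stood at log2 fold changes of 0.12 ± 0.18 and -0.50 ± 0.34, and Pnrc2 at -0.03 ± 0.17. None had groups apart.

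Known target mRNAs of ZFP36 proteins, Regnase-1 or Roquin-1 were read from a list of 14, of which 10 were tested, 5 above and 5 below 0 (median -0.11, from -0.31 without anti-PD-1 5 to -0.060 without anti-PD-1 6). The median was also over 1.5 times as far from 0 without untreated 2 (-0.25), untreated 3 (-0.23) or anti-PD-1 4 (-0.19). With all libraries, the processing moved it as well. It was -0.30 by DESeq2, -0.30 in edgeR without a filter, -0.22 with at least 10 CPM in 3 libraries and -0.20 by limma-voom. No target gene passed, and 3 had lower values at an edgeR unadjusted p under 0.05, beside 421 of all 10352 tested genes. Icos, the costimulatory receptor by which Roquin-1 is best known, was lower in every anti-PD-1 library, as were 6.44% of tested genes. It stood at 1997, 1715 and 1623 CPM in untreated and at 1529, 1507 and 1160 CPM in anti-PD-1 libraries. Its log2 fold change was -0.35 ± 0.14 (SE, edgeR unadjusted p of 0.0232, adjusted p = 0.551). The NF-kappaB subunit gene Rel, a target of Regnase-1, stood at 583, 402 and 335 CPM untreated and 317, 356 and 321 CPM after anti-PD-1, with untreated 1 far above the rest (log2 fold change -0.41 ± 0.17, edgeR adjusted p = 0.551).

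The cytokine gene Il10 stood at -0.69 ± 0.32 and Nfkbiz, an inhibitor of kappaB family gene, at -0.24 ± 0.15. Tnf, the classic target of tristetraprolin, carries 5 copies of TTATTTATT in its 3′ UTR of 764 bases and stood at 38.1 ± 11.0 CPM untreated and 40.4 ± 14.2 after anti-PD-1, a log2 fold change of 0.09 ± 0.29. In all, 4 of the 14 target genes held the element, Tnf, Il2, Csf2 and Rel. A level of mRNA says nothing here of how fast it decays, which was not measured.

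**Figure D5:**
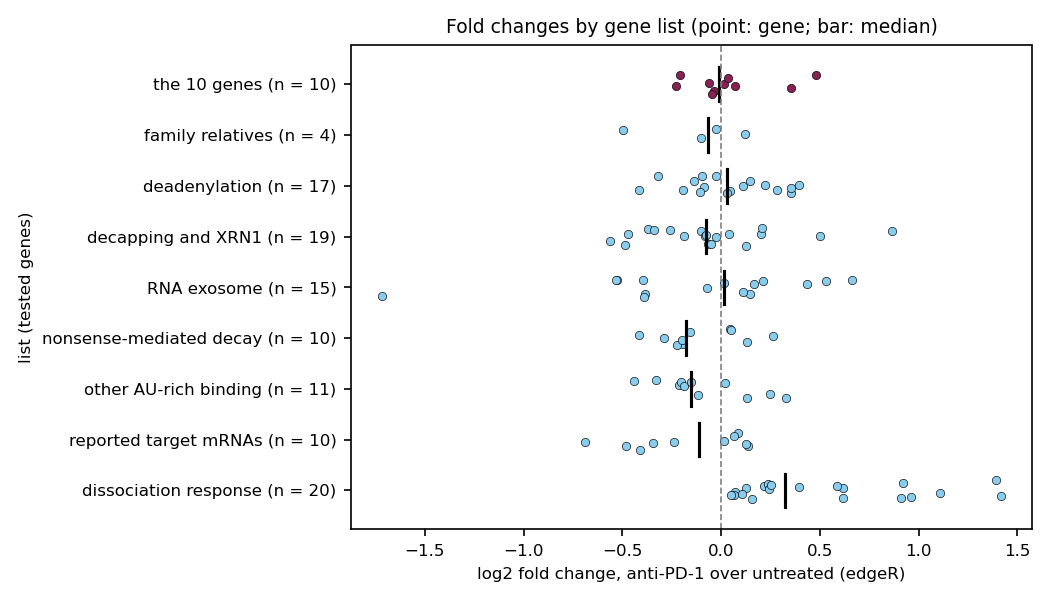
Log2 fold change (anti-PD-1 over untreated, horizontal axis) of each tested gene of the 10 and of the 8 other lists, with a bar at the median. The 10 genes have a median of -0.0097, the dissociation response list one of 0.32 with all 20 genes above 0, and the medians of the other lists lie between -0.18 and 0.03.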

How the data were processed

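The authors deposited unnormalized fragment counts for each gene. Per the file headers, featureCounts 1.5.2 assigned read pairs to a UCSC gene annotation of mm10 with strand setting 1. Gene lengths in bases are the same file's, per the file headers. What was done with duplicate reads is not stated. In this table, no other gene shares exon bases with any of the 10. A further unnamed column (1) was not used.

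The counts were tested across all genes with edgeR 4.0.16 in R 4.3.3: filterByExpr (count of 10, 15 in total), TMM scaling, glmQLFit with robust shrinkage and glmQLFTest, two-sided, treatment as the only term, with Benjamini-Hochberg adjustment at 0.05 over 10352 genes. CPM values carry the SD over 3 libraries and fold changes the SE of the fit. Each of the 10 genes had 602 or more counts in every library, but for Btg2 in the untreated and Tob1 in the anti-PD-1 group the spread between libraries was no larger than the Poisson error of such counts. Alternatives were DESeq2 1.42.0, limma 3.58.1 (voom with quality weights), other scalings and filters, removal of abundant RNAs, other shrinkage and leaving out each library. EdgeR's older quasi-likelihood form was added after seeing the data. The fit was tested on simulated data.

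The members and lists were chosen with earlier results of these data known. The text names all members, up to 4 genes per list by smallest p, and the 5 genes most correlated with the member of smallest p. The values of Tnf, the genes of the dissociation list beyond the first 4, and the printing of the overlap count without untreated 1 were chosen after their values were seen. Of the list entries, Cnot9 and Adgre1 matched through older symbols and Ly6g matched none. No paired analysis was possible because the groups share no replicate numbers.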

Additional observations from a re-analysis of the deposited data

How the results depend on the processing

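None of the 10 genes passed in the main analysis or in any of 16 alternatives. The number of all genes that passed was 3 with edgeR, 5 with upper quartile scaling, 7 with library totals only, 52 without a filter, 5 without robust shrinkage, 29 by DESeq2 and 12 by limma-voom, and 1 to 19 when 1 library was left out (19 without untreated 1, 1 without anti-PD-1 5). Genes of the 10 without overlap between groups numbered 3 in every alternative but 1, ranging from 3 to 7 when 1 library was left out (7 without untreated 1). Leaving out a library can hardly make separate groups overlap, so that count could hardly fall. The fits without robust shrinkage, with the older quasi-likelihood form and by limma-voom shared the main CPM values, which fixed their count. Without untreated 1, 12.1% of tested genes were higher and 11.4% lower in every anti-PD-1 library. The median log2 fold change of the 10 genes ran from -0.13 to 0.14 when 1 library was left out (0.14 without untreated 1, -0.13 without untreated 3). Btg2, Zfp36 and Zfp36l1 kept their direction in all 16. Limma-voom with quality weights turned the sign of Tob1 (0.263), Tob2 (0.0216), Zfp36l2 (-0.0845), Rc3h1 (0.0511) and Pnrc1 (0.068), and Tob1 also turned with upper quartile scaling (0.0065) and library totals (0.0082). Leaving out 1 library turned the sign of 7 genes, whose log2 fold changes then ran from -0.057 to 0.16 (Btg1), -0.21 to 0.39 (Tob1), -0.40 to 0.093 (Tob2), -0.16 to 0.26 (Zfp36l2), -0.13 to 0.19 (Zc3h12a), -0.15 to 0.11 (Rc3h1) and -0.13 to 0.12 (Pnrc1). Leaving out untreated 1 turned Tob1, Tob2, Zfp36l2, Rc3h1 and Pnrc1, and anti-PD-1 4 also turned Zfp36l2. Btg1 turned without untreated 2 (-0.057), untreated 3 (-0.045) or anti-PD-1 4 (-0.00084). Zc3h12a turned without untreated 3 (-0.13) or anti-PD-1 6 (-0.0052). The cause was not tested. Precision for the 10 genes is limited by 3 libraries per group more than by depth, except where libraries of a group agreed as closely as counting error allows (Btg2 untreated, Tob1 after anti-PD-1).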
